A study of Mus musculus with 4 samples.

Results

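The largest T-cell clonotypes of a pBIC and a pBIC10 lymphoma-bearing mouse were compared with each other. A clonotype here is a group of cells that the authors' TCR tables place together by their rearranged receptor chains, though not every chain was read in every cell. A large clonotype is one with at least 50 cells in those tables. That threshold, set on clonotype size, was met by 19 of 1990 clonotypes in pBIC and by 5 of 1733 in pBIC10, 24 in all. Their cells were the barcodes that also carried gene expression and no more than 2 UMIs (unique molecular identifiers, counts of captured transcripts) of the B-cell genes Cd79a and Cd79b together. The members were thus selected on their size and on Cd79 UMIs, both measured values, which are described here and support nothing. This gave 2191 cells of 33120 barcodes, 1841 in pBIC and 350 in pBIC10. Clonotypes are called by the number the authors gave them, which runs from the largest down in each mouse, so that clonotype 1 of pBIC and clonotype 1 of pBIC10 are unrelated. Sizes ran from 336 to 52 cells in pBIC, with the next clonotype at 48, and from 116 to 56 cells in pBIC10, with the next at 33.

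The study profiled the spleen of 1 female mouse per genotype, labelled pBIC and pBIC10 with no allele named, by droplet single-cell sequencing from the 5' end of transcripts. Each spleen gave a gene expression library and a library enriched for TCR transcripts, 4 libraries in all. Before loading, live cells had been sorted and recombined, with the GFP-marked lymphoma making up 20% and the remaining spleen cells 80%, so cell proportions are not those of the spleen. With 1 mouse per genotype there was no replicate and no test was made, and expression was compared only between clonotypes of the same mouse. Values are the summed UMIs of a clonotype scaled to an equal total for every clonotype (CPM) with exact 95% Poisson intervals, and ratios carry exact 95% binomial intervals. All intervals cover counting error only, and cells of a clonotype share 1 library and 1 animal.

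A T cell assembles its receptor from V, D and J segments early in its life, and the joined sequence is passed on to all of its descendants. Cells with the same alpha (TRA) and beta (TRB) chains therefore descend from the same founder and recognise the same antigen. CD8 T cells kill target cells with granzymes and perforin and release interferon gamma and chemokines. Under lasting antigen exposure they can take up inhibitory receptors such as PD-1 together with the transcription factor TOX, while other descendants keep the transcription factor TCF-1 or acquire the receptors of circulating effector cells.

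The complementarity-determining region 3 (CDR3) spans the V to J junction and identifies each clonotype. The nucleotide sequences below come from the deposited contig tables, 5' to 3'. Capitals mark the bases between the ends that each shares with other clonotypes of the same V and J gene. They approximate the junction, since no alignment to unrearranged V, D and J segments was made. TRBV13-3 was used by clonotypes 4, 6, 10 and 17 of pBIC, and 3 of these form a group in the results below.
pBIC clonotype 4 TRB: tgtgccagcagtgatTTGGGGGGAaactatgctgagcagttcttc
pBIC clonotype 6 TRB: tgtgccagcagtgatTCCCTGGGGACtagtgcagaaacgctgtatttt
pBIC clonotype 10 TRB: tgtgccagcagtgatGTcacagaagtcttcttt
pBIC clonotype 17 TRB: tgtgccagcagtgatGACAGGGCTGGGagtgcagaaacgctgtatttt
Their stretches in capitals differed in sequence and in length, from 2 bases in clonotype 10 to 12 bases in clonotype 17. Their J genes were TRBJ2-1, TRBJ2-3, TRBJ1-1 and TRBJ2-3. An alpha chain with TRAJ31 was found in clonotypes 4, 6 and 10, and in clonotype 12, but not in clonotype 17.

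The largest pair of pBIC clonotypes shared TRBV12-1 and differed in many of the genes described here.
pBIC clonotype 1 TRB: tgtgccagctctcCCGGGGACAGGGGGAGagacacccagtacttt
pBIC clonotype 2 TRB: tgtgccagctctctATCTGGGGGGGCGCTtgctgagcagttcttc
TRBV19 was used by clonotypes 5 and 7 and by clonotype 15, the only large clonotype with Cd4 in place of Cd8 transcripts.
pBIC clonotype 5 TRB: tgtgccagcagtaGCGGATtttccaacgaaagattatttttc
pBIC clonotype 7 TRB: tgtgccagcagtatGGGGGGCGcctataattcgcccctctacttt
pBIC clonotype 15 TRB: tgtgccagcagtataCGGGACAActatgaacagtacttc
The TRB chain of clonotype 5 was also read in 8 cells of clonotype 7. Clonotype 2 of pBIC10 stood apart from the 4 others of its mouse in NK receptors and chemokines, and clonotypes 1 and 3 shared TRBV31.
pBIC10 clonotype 2 TRB: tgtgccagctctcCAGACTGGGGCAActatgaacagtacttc
pBIC10 clonotype 1 TRB: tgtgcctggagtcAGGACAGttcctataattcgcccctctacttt
pBIC10 clonotype 3 TRB: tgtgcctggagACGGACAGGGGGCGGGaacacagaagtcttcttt
A second alpha chain was read in 218 of the 336 cells of pBIC clonotype 1, and in 6 other large clonotypes. No alpha chain was read in 94 of the 239 cells of pBIC clonotype 2, where only the beta chain was seen. In clonotype 14, 21 cells carried at least 2 TRB chains, all of them with TRBV15. A TRB chain of clonotype 14 was also read in 33 cells of 7 other clonotypes. Whether all cells of clonotype 14 share a founder was not tested. All levels, ratios and gene counts of clonotype 14 below include the kept cells with at least 2 TRB chains, and none is given without them.

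The pBIC gene expression library held 166941618 UMIs and that of pBIC10 held 147884282. Large clonotypes made up 24.25% of the cells with a clonotype in pBIC and 9.89% in pBIC10. The limit on Cd79 transcripts removed 171 and 18 of their barcodes, whose median UMI counts of 15564 and 15655 were above the medians of 7534 and 7344 in the cells kept. Another 164 and 15 kept cells lay exactly at the limit. The libraries shared 712 barcodes, 76 and 14 of them in large clonotypes, and of 43 barcodes with a TCR in both none had the same CDR3 in both. Median depth differed between clonotypes, from 4980 UMIs per cell in clonotype 9 to 13064.5 in clonotype 17 of pBIC, and from 3877.5 in clonotype 4 to 9317 in clonotype 1 of pBIC10. Clonotypes 17 and 18 of pBIC kept 48 cells each, so their levels are given but they were left out of the counts of genes past 2-fold.

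The label of CD8 T cells held for 23 of the 24 clonotypes. Cd3e, a chain of the TCR signalling complex, lay between 1276 and 1859.7 CPM in pBIC and between 1099 and 1683 CPM in pBIC10. In 18 of 19 pBIC clonotypes and all 5 pBIC10 clonotypes, Cd8a and Cd8b1, the chains of the CD8 coreceptor, together were at least 3 times as high as Cd4. Clonotype 15 of pBIC had 249 CPM (204 to 301) of Cd4, from 106 UMIs, and 21.1 CPM (9.66 to 40.1) of Cd8a. Among its 58 cells, 38 had UMIs of Cd4 but not Cd8, 1 of Cd8 but not Cd4, 6 of both and 13 of neither. Cd4 in the other pBIC clonotypes lay between 0 and 11.9 CPM. Clonotype 15 had no UMI of Foxp3, the factor of regulatory T cells, or of Cd40lg, the helper ligand. The chains of CD8 were not balanced in every clonotype. Cd8b1 reached 1564 CPM (1462 to 1671) in clonotype 9 and was 158 CPM (137 to 181) in clonotype 4, 219.5 CPM (186 to 257) in clonotype 16 and 278 CPM (251 to 307) in clonotype 7. Clonotype 4 thus had 0.212 times (0.184 to 0.242) the Cd8b1 of the pooled others, with 358 CPM (327 to 392) of Cd8a.

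**Figure D1:**
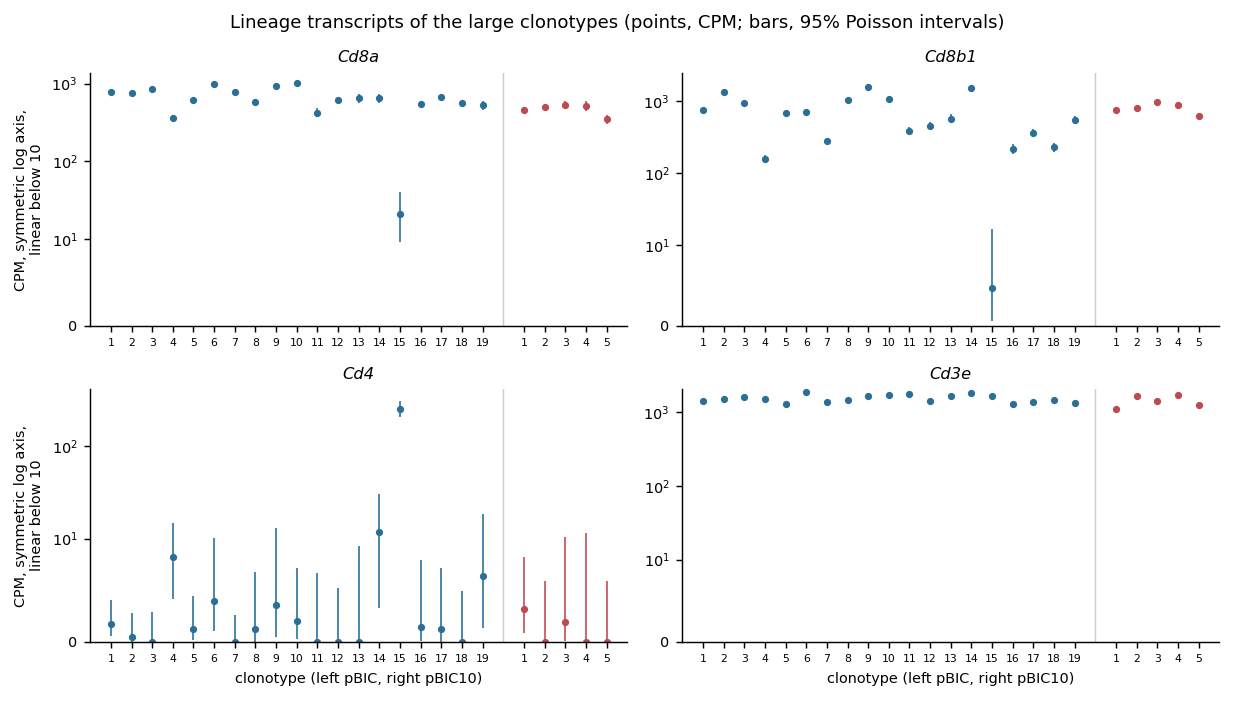
Each point is the summed level of a large clonotype in CPM (log-like axis, linear below 10) with its 95% Poisson interval, for Cd8a, Cd8b1, Cd4 and Cd3e, with pBIC clonotypes in blue on the left and pBIC10 clonotypes in red on the right. Clonotype 15 of pBIC is high for Cd4 and low for both Cd8 chains, and the others show the reverse.

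Each large clonotype with at least 50 kept cells was set against the pooled other large clonotypes of its mouse. A gene was compared when both sides together had at least 50 UMIs and the higher side at least 20 CPM, and it was counted as different past 2-fold. In pBIC, 5175 of 108419 pairs of a clonotype and a gene were past 2-fold, 4.77%, of which 1942 were higher (1.79%) and 3233 lower (2.98%). In pBIC10 the count was 1555 of 29226 pairs, 5.32%, with 590 higher (2.02%) and 965 lower (3.3%). Single clonotypes ranged from 1.45% of genes in clonotype 7 to 14.7% in clonotype 14 of pBIC, and from 3.08% in clonotype 5 to 11.8% in clonotype 4 of pBIC10. The 2-fold cut used no interval, so these percentages include counting error, which is larger where a clonotype has fewer UMIs in all. Clonotypes 14 and 13 of pBIC had 335564 and 395450 UMIs in all, against 2850687 in clonotype 1. Clonotype 4 of pBIC10 had 321530. Clonotypes with few UMIs per cell tended to have more of these differences. The part of depth and of counting error in the counts was not tested. The count of clonotype 14 of pBIC includes its kept cells with at least 2 TRB chains, and no count without them is given. When only genes with a UMI in at least 20% of the cells of the higher side were kept, the span in pBIC was 0.672% to 10.7%, with the same clonotypes at either end, and in pBIC10 it was 1.67% in clonotype 1 to 9.81% in clonotype 4, with clonotype 5 at 2.14%.

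Of the 18 lists of genes of T-cell states, 10 spanned at least 2-fold between the lowest and highest clonotype of pBIC and 7 of 18 did so in pBIC10, or 4 of 18 without cells under 5000 UMIs and 4 of 18 without cells holding any Cd79 UMI. These counts include the Gzmc to Gzmg granzymes, which had no UMI in some clonotypes and reached 25.1 CPM in clonotype 9 of pBIC and 488 CPM in clonotype 2 of pBIC10. NK receptors spanned 14.4-fold in pBIC, circulating effector genes 4.97-fold, proliferation genes 4.02-fold and inhibitory receptors 2.98-fold. The summed cytotoxic genes spanned 1.87-fold, interferon response genes 1.79-fold, IL-10 and STAT3 response genes 1.56-fold and CD8 transcription factors 1.36-fold.

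Killing molecules were abundant in every large clonotype, but in different make-up. Gzmb, the granzyme that triggers death of target cells, was lowest in clonotype 9 at 1359.5 CPM (1264 to 1459.8), had a median of 2518 CPM and reached 7090.4 CPM (6870.5 to 7316) in clonotype 11 of pBIC. Clonotypes 11, 16 and 19 formed the upper end, with 6591 CPM in clonotype 16 and 5623 CPM in clonotype 19, and clonotype 11 stood 2.63-fold (2.55 to 2.72) above the pooled others. Gzma, another granzyme, was high in 2 of these 3, at 949 CPM (869 to 1033) in clonotype 11 and 972 CPM (885 to 1065) in clonotype 19, with 547 CPM in clonotype 16 and a median of 88.5 CPM. Gzmk, a granzyme of less differentiated effector cells, ran from 701 CPM (645 to 761) in clonotype 8 to 1997 CPM (1865 to 2136) in the Cd4 clonotype 15. Perforin (Prf1), the pore former, was 171 CPM in clonotype 15 and 640.0 CPM in clonotype 10. In pBIC10, Gzmb lay in a narrower band, at 943, 903, 622, 588 and 1045 CPM in clonotypes 1 to 5.

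Interferon gamma and the inflammatory chemokines varied together. Ifng was lowest in clonotype 19 at 146 CPM (113 to 184), had a median of 451 CPM and was highest in clonotype 6 at 1504 CPM (1429.8 to 1582), followed by clonotype 10 at 1223, clonotype 7 at 972, clonotype 17 at 919 and clonotype 4 at 911 CPM. Ccl3, a chemokine that attracts inflammatory cells, ran from 46.9 CPM (28.7 to 72.5) in clonotype 15 over a median of 865 CPM to 4342 CPM (4215 to 4473) in clonotype 10 and 3770.4 CPM (3652 to 3892) in clonotype 6. Clonotypes 10 and 6 stood 4.2-fold (4.07 to 4.34) and 3.54-fold (3.42 to 3.67) above their pooled others, and clonotype 1, the largest, had 0.136 times (0.125 to 0.148) the level of its pooled others. Ccl4, a related chemokine, followed the same order at its ends, with 211 CPM in clonotype 15 and 8294 CPM in clonotype 10. Across the 18 Cd8 clonotypes of pBIC, Ifng and Ccl3 ranked alike (Spearman's rho 0.90, Pearson's r 0.91), a description of points that share a library and differ in depth. Of the 6 tested genes of the chemokine and cytokine list, 4 were past 2-fold higher and 1 lower in clonotype 6, where 1.24% of all tested genes were higher, and the same counts held in clonotype 10, where 0.831% were.

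Ccl5, a chemokine of memory and effector T cells, did not follow them. It ran from 12319 CPM in clonotype 18 to 53339 CPM in clonotype 13, and was higher in clonotypes with fewer UMIs per cell (rho -0.86 with median UMIs over the 18 clonotypes). Whether depth set this order was not tested. Il10, the regulatory cytokine named in the title of the series, was highest in the same pair as Ccl3, at 226 CPM (198 to 257) in clonotype 6 and 179 CPM (154 to 207) in clonotype 10, against a median of 36.6 CPM. In clonotype 16 it was 109.8 CPM (86.6 to 137). After each cell was thinned to 2000 UMIs, Il10 was found in 22% (13.6 to 32.5) of the cells of clonotype 10, 16.5% (9.73 to 25.4) of clonotype 6 and 2.04% (0.753 to 4.39) of clonotype 1. Unthinned shares were 45.2%, 32% and 10.8%. Erythroid cells without a TCR, which should lack the gene, gave 0.612% (0.0742 to 2.19) thinned and 2.05% unthinned. B-lineage cells without a TCR gave 5.27% thinned and 30.9% unthinned, so they do not serve as a reference without Il10. Their median depths before thinning were 14348.5 and 15342.5 UMIs. The thinned share in clonotype 1 was above that of erythroid cells, with overlapping intervals, and below that of B-lineage cells. It was not read as expression, and its source was not tested. In clonotype 10 Il10 was 1.30 in log2 above the others when cells with any Cd79 UMI were left out, and 1.86 with them.

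Inhibitory receptors separated the clonotypes of both mice. Pdcd1 (ENSMUSG00000026285), which encodes PD-1, was lowest in clonotype 5 at 48.7 CPM (38.6 to 60.7), had a median of 249 CPM and was highest in clonotype 10 at 534 CPM (490.0 to 581). Clonotypes 5, 19, 1, 15 and 16 formed its lower end, at 48.7, 82.4, 63.8, 65.7 and 77 CPM. Tox, the transcription factor tied to the exhausted state, was 38.4 CPM (29.5 to 49.1) in clonotype 5 and 375 CPM (313 to 447) in clonotype 14, with a median of 185 CPM. Clonotype 5 had 0.19 times (0.151 to 0.237) the Pdcd1 of its pooled others and 0.208 times (0.159 to 0.266) their Tox. With clonotypes 5 and 7, which share a TRB chain in some cells, joined into 1 clonotype, these log2 ratios of -2.39 and -2.27 became -0.99 and -1.40. Lag3, another checkpoint receptor, ran from 65.5 CPM in clonotype 19 to 352 CPM in clonotype 10, and Tigit from 296 CPM in clonotype 19 to 917 CPM in clonotype 6. Of the 13 tested genes of the inhibitory receptor list, 5 were past 2-fold higher and 1 lower in clonotype 10 (0.831% of all its genes were higher), with a median log2 ratio of 0.70 against -0.02 over all its tested genes. In clonotype 19, 0 were higher and 6 lower (4.04% of all its genes were lower), with a median log2 ratio of -0.90 against -0.03 over all its tested genes.

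Havcr2 (TIM-3) and Cd160 did not follow Pdcd1 throughout. Havcr2 was highest in clonotype 16 at 314 CPM (274 to 358), where Pdcd1 was low, and lowest in clonotype 13 at 43 CPM (25 to 68.8). Its order followed depth across the 18 Cd8 clonotypes (rho 0.81 with median UMIs), and the part of depth was not tested. Cd160, an inhibitory receptor for HVEM, was 266 CPM in clonotype 2 and 19.8 CPM in clonotype 11. The share of cells with a Pdcd1 UMI after thinning ran from 8.2% (4 to 14.6) in clonotype 5 to 65.4% (50.9 to 78) in clonotype 14, against 1.22% of erythroid and 0.658% of B-lineage cells. Among the 1824 thinned cells of the large pBIC clonotypes, the Cd4 clonotype 15 included, clonotype identity accounted for 16.4% of the variance of Pdcd1. With no difference between clonotypes and independent cells, 0.987% is expected. These cells share 1 library and 1 animal, so setting the values side by side is no test. For Gzmk the value was 14.3%, for Ifng 13.1%, for Penk 8.51% and for Mki67 2.12%. In pBIC10 the value for Pdcd1 was 11.2%, where 1.17% is expected. Pdcd1 had the highest value in both mice among the genes whose thinned shares were taken, and other genes lay near or under the expected value. Gzmc was at 0.706% in pBIC, and Cd101, Isg15 and Mki67 were at 0.234%, 0.727% and 1.22% in pBIC10.

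Genes of progenitor and memory cells were uneven among the large clonotypes. Tcf7, which encodes TCF-1, had no UMI in clonotype 12, a median of 9.42 CPM and 76 CPM (53.3 to 105) in clonotype 19, 6.28-fold (4.29 to 8.95) the level of the pooled others. It was higher in clonotypes with fewer UMIs per cell (rho -0.79 with median UMIs over the 18 Cd8 clonotypes), and the part of depth was not tested. After thinning, clonotype identity accounted for 1.94% of the variance of Tcf7, where 0.987% is expected with no difference. Clonotypes of 1 cell stood at 87.2 CPM and those of 2 to 49 cells at 37.1 CPM in pBIC, above the 13.7 CPM over all large clonotypes. These smaller clonotypes were not selected for Cd8 and may include other T cells, so the difference is not one among Cd8 cells alone. Il7r, the receptor for interleukin 7, was also highest in clonotype 19 at 194 CPM (157 to 238), and next in clonotype 1 at 121 CPM (109 to 135). Bcl2, which protects from cell death, was high in a different set of clonotypes: 387 CPM in clonotype 14, 326 in 13, 279 in 2, 268 in 8 and 265 in 9, against a median of 68.5 and a low of 25.7 CPM (15.2 to 40.5) in clonotype 16. Clonotypes 2, 8 and 13 stood 3.1-fold (2.81 to 3.42), 2.61-fold (2.26 to 3) and 3.1-fold (2.57 to 3.71) above their pooled others. These 5 clonotypes had median depths between 4980 and 6575 UMIs, at the low end of the 19, and a part of depth in the difference was not tested.

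Klrg1, a receptor of terminal effector cells, was lowest in clonotypes rich in Bcl2. It was 7 CPM (3.83 to 11.7) in clonotype 2 and 7.31 CPM (2.68 to 15.9) in clonotype 8, had a median of 82.1 CPM and reached 225 CPM (191 to 263) in clonotype 16. Clonotypes 2 and 8 thus had 0.0631 times (0.0345 to 0.106) and 0.0701 times (0.0257 to 0.153) the level of their pooled others. After thinning, Klrg1 was found in 1.1% (0.0278 to 5.97) of the cells of clonotype 8 and 40.8% (27 to 55.8) of clonotype 16, against 0.988% of B-lineage cells, so the share in clonotype 8 was near background. Klrg1 was higher in deeper clonotypes (rho 0.81 with median UMIs over the 18 Cd8 clonotypes). Cx3cr1, a receptor of circulating effector cells, was highest in clonotype 14 at 113 CPM (80.1 to 155), where Klrg1 was 59.6 CPM, and lowest in clonotype 11 at 1.8 CPM from 1 UMI. Ly6c2, a surface protein of effector and memory CD8 cells, was 368 CPM in clonotype 19 against a median of 64.9. Of the circulating effector list, 6 of 10 tested genes were past 2-fold higher and 0 lower in clonotype 14 (6.14% of its genes were higher), with a median log2 ratio of 1.09 against -0.03 over all its tested genes. These values of clonotype 14 include its kept cells with at least 2 TRB chains. Clonotype 14 also had the highest sums of monocyte or macrophage markers, 2006 CPM, and of B-cell markers, 3123 CPM. Without 1 cell rich in markers of other cell types these sums were 235 and 627 CPM, and 5 of 9 tested genes of the list were past 2-fold higher and 0 lower (5.06% of its genes were higher). In clonotype 19, 4 of 9 were higher and 0 lower (2.04%), with a median log2 ratio of 0.45 against -0.03 over all its tested genes.

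**Figure D2:**
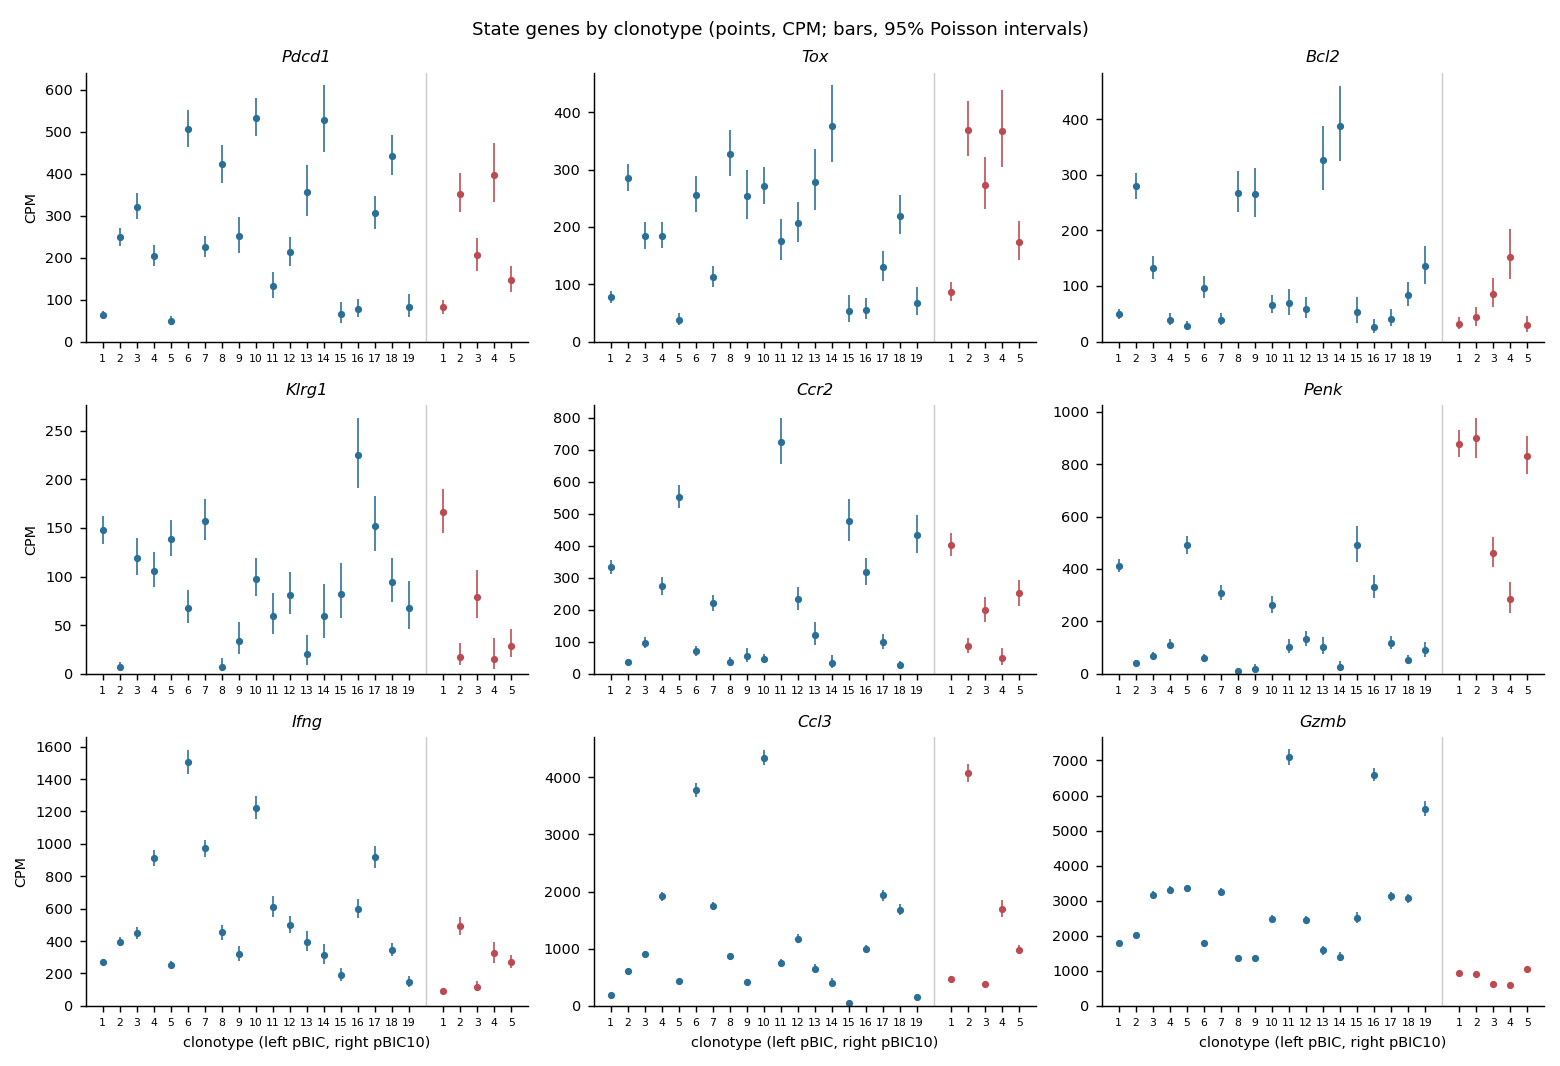
Panels show the CPM of Pdcd1, Tox, Bcl2, Klrg1, Ccr2, Penk, Ifng, Ccl3 and Gzmb in each large clonotype, with 95% Poisson intervals, pBIC in blue on the left and pBIC10 in red on the right, all on linear axes. Clonotypes 2, 8, 9, 13 and 14 of pBIC are high for Bcl2, clonotypes 6 and 10 for Ifng and Ccl3, and clonotypes 11, 5, 15 and 19 for Ccr2.

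Single trafficking receptors also differed between the clonotypes, while their list as a whole spanned 1.72-fold in pBIC and 1.28-fold in pBIC10. Those named here were the list members with the widest spread. Ccr2, the receptor that follows CCL2 into inflamed tissue, was lowest in clonotype 18 at 26.6 CPM (16.3 to 41.1), had a median of 121 CPM and was highest in clonotype 11 at 725 CPM (656 to 799), followed by clonotypes 5, 15 and 19 at 553, 476 and 433 CPM. Cxcr3, the receptor for interferon-induced chemokines, was nearly absent from some of the clonotypes rich in Ifng: 3 UMIs in clonotype 10, 0.0301 times (0.0062 to 0.088) the level of its pooled others, and 9 UMIs in clonotype 6, 0.0898 times (0.041 to 0.171). Clonotype 17 had 1 UMI. The highest level was that of the Cd4 clonotype 15, at 291 CPM (242 to 347). Cxcr6, a receptor of tissue-resident and exhausted CD8 cells, was 29.8 and 32.9 CPM in clonotypes 1 and 5 and 274 CPM in clonotype 14.

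Genes of recent TCR signalling also differed. Nr4a1, induced within the first hours of TCR engagement, was 186 CPM (164 to 211) in clonotype 4, 4.3-fold (3.71 to 4.97) above its pooled others, and 5.06 CPM (0.612 to 18.3) in clonotype 13. Egr1, another immediate target, ran from 14.1 CPM in clonotype 15 to 297 CPM in clonotype 10. Tnfrsf4 (OX40), a costimulatory receptor that appears on activated T cells, ran from 5.06 CPM in clonotype 13 to 482 CPM in clonotype 6. The list as a whole spanned 1.61-fold.

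Among the state lists with a UMI in every pBIC clonotype, NK receptors had the widest span after a list of 6 genes named from earlier results. Klrd1 (CD94) pairs with NKG2A, the product of Klrc1, to form an inhibitory receptor, and Klrk1 encodes the activating receptor NKG2D. All of them were highest in clonotype 3 of pBIC: Klrd1 at 425 CPM (390.4 to 463), Klrc1 at 458 CPM (421 to 496), Klrk1 at 223 CPM (198 to 250.4) and the related Klre1 at 149.9 CPM (129 to 173). They stood 5.97-fold (5.39 to 6.61), 8-fold (7.22 to 8.87), 8.46-fold (7.28 to 9.83) and 11.9-fold (9.75 to 14.5) above the pooled others. Klrc1 in clonotype 1, the largest, was 5.96 CPM (3.47 to 9.55), 0.061 times (0.0355 to 0.098) the level of its pooled others, and Klrk1 there was 1.75 CPM (0.57 to 4.09). Of 7 tested genes of the list, 5 were past 2-fold higher and 2 lower in clonotype 3 (0.744% of its genes were higher), with a median log2 ratio of 2.58 against 0.03 over all its tested genes. In clonotype 12, 0 of 6 were higher and 6 lower (2.13% of its genes were lower). Clonotype 13 had 4 of 6 higher and 0 lower (3.94%), with Klrk1 at 179.5 CPM (140.2 to 226). Ncr1, a defining gene of NK cells, had no UMI in clonotype 3.

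The same genes marked clonotype 2 of pBIC10. Its Klrd1 was 635 CPM (574 to 701), while clonotypes 1, 3, 4 and 5 had 26.4, 52.8, 43.5 and 24.1 CPM. The ratio to the pooled others was 19.2-fold (15.3 to 24.5) for Klrd1, 20.3-fold (13.6 to 31.2) for Klrk1, 13.5-fold (10.2 to 18.1) for Klrc1 and 31.9-fold (16.4 to 69.4) for Klre1. Klrd1 was found in 88.4% and Klrc1 in 87% of its unthinned cells. In the list, 4 of 6 tested genes were past 2-fold higher and 0 lower (1.9% of its genes were higher), with a median log2 ratio of 4.01 against -0.03 over all its tested genes. The NK-cell genes Ncr1, Klra8 and Klrb1c had no UMI in any large clonotype of pBIC10. Clonotypes 3 of pBIC and 2 of pBIC10 shared neither their TRB V gene nor their TRA V gene.

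**Figure D3:**
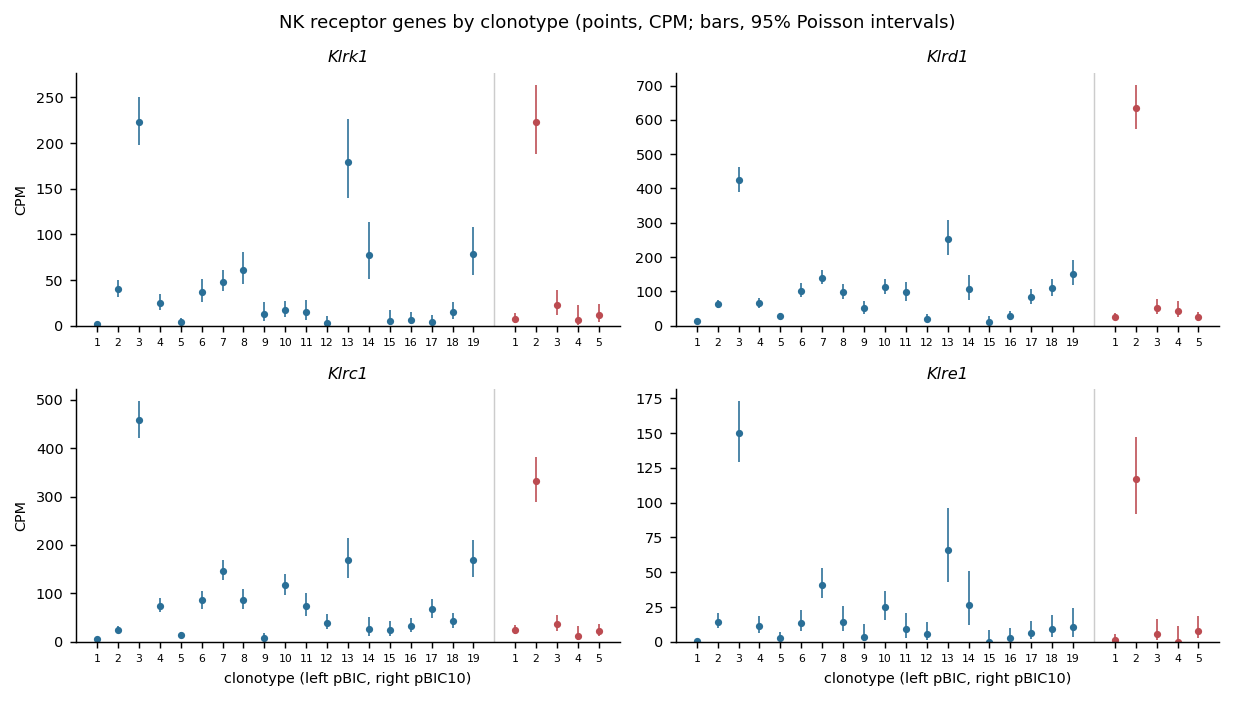
Levels of Klrk1, Klrd1, Klrc1 and Klre1 in each large clonotype in CPM with 95% Poisson intervals, pBIC in blue on the left and pBIC10 in red on the right. Clonotype 3 of pBIC and clonotype 2 of pBIC10 are the highest of their mouse in all 4 panels.

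Transcripts of cycling cells were found in all large clonotypes, at different levels. Mki67, a protein of cycling cells, was lowest in clonotype 14 at 179 CPM (136 to 230.2), had a median of 412 CPM and was highest in clonotype 12 at 538 CPM (486 to 595). The summed proliferation list of pBIC ran from 1842 CPM in clonotype 14 and 2243 CPM in clonotype 13 to 7399 CPM in clonotype 5. In clonotype 14, 0 of the 14 genes were past 2-fold higher and 14 lower (8.57% of its genes were lower), with a median log2 ratio of -1.94 against -0.03 over all its tested genes. In clonotype 13, 0 were higher and 11 lower (8.51%), with a median log2 ratio of -1.66 against -0.09 over all its tested genes, and in clonotype 9, 0 were higher and 6 lower (4.5%). Birc5, needed for cell division, was 0.12 times (0.055 to 0.229) the level of the pooled others in clonotype 14 and 0.193 times (0.112 to 0.309) in clonotype 13. Glycolysis genes followed a similar order, from 2799 CPM in clonotype 13 to 7234 CPM in clonotype 16 among the clonotypes compared. Ldha, which makes lactate, was 569 CPM in clonotype 13 and 2269 CPM in clonotype 17. Clonotypes 9, 13 and 14, low in both lists, had median depths of 4980, 5543 and 5593 UMIs, and clonotypes 16 and 17 of 11563 and 13064.5. The values of clonotype 14 again include its kept cells with at least 2 TRB chains. With each cell thinned to 2000 UMIs, which gives all cells the same depth, the proliferation list spanned 3.16-fold. Without cells under 5000 UMIs it spanned 2.09-fold, and the glycolysis list 1.75-fold in place of 2.58-fold.

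Penk, which encodes the opioid precursor proenkephalin, and Tff1, a trefoil peptide, were on a list of genes named earlier as higher in pBIC10 CD8 cells and are given for that reason. Penk was 8.52 CPM (3.43 to 17.6) in clonotype 8 of pBIC, had a median of 104 CPM and stood at 493 CPM (428 to 564) in clonotype 15, 492 CPM (459 to 527) in clonotype 5 and 412 CPM (389 to 436) in clonotype 1. It was found in 27% (19.4 to 35.8) of the thinned cells of clonotype 5 and 1.1% (0.0278 to 5.97) of those of clonotype 8 (61.5% and 1.1% unthinned). Across the 18 Cd8 clonotypes Penk ranked like Klrg1 (rho 0.77), and both were higher in deeper clonotypes (rho 0.57 and 0.81 with median UMIs). The part of depth was not tested. Penk in the 5 pBIC10 clonotypes was at 877, 899, 462, 286 and 832 CPM. Tff1 ran from 2.35 to 74.8 CPM in pBIC and from 103 to 517 CPM in pBIC10, and as both genes were named from these data as higher in pBIC10, the levels are given side by side with no comparison. Cd7, an early T-cell surface protein on a list of genes named earlier as higher in pBIC, was 93.9 CPM in clonotype 15 and 1094 CPM in clonotype 9, and 9.59, 25.7, 11.3, 77.8 and 4.82 CPM in the pBIC10 clonotypes. Mouse and genotype cannot be told apart in these values.

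Several genes were found in a larger share of the cells of a particular clonotype than of the pooled others. These shares are of unthinned cells. They were ranked among genes with a UMI in at least 20% of a clonotype's cells, and those named here were chosen after their values were seen. Xlr, of the X-linked lymphocyte-regulated family, was 91.6 CPM against 0.185 CPM in the pooled others, 494-fold (167 to 2412), in clonotype 1 of pBIC. Its UMIs were in 50.2% of its cells against 0.194% of the other cells, and the pooled others held 3 UMIs in all. Ly6k, a GPI-anchored surface protein, was 32 CPM against 0.176 CPM in the pooled others, 182-fold (59.5 to 905), in clonotype 2. It was in 20% of its cells against 0.124% of the other cells. Atp6v1g3, a proton pump subunit, was 64.5 CPM against 7.04 CPM in the pooled others, 9.17-fold (7.22 to 11.7), in clonotype 1, and Asb2, a ubiquitin ligase subunit, was 58.5 CPM against 9.8 CPM in the pooled others, 5.97-fold (4.67 to 7.61), in clonotype 2. Neither Xlr nor Ly6k had its high level in a few cells, with 2.68% and 7.81% of the UMIs in the highest cell.

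Smaller clonotypes also had genes far above the pooled others, some of them in more than 1 clonotype. Map2, a microtubule protein, was 42.6 CPM against 7.12 CPM in the pooled others, 5.99-fold (4.3 to 8.25), in clonotype 4. It was next highest in clonotype 7 at 25.5 CPM (17.9 to 35.3), in 27% of its cells. Ephb6, an ephrin receptor without kinase activity, was 82.5 CPM against 5.16 CPM in the pooled others, 16-fold (11.8 to 21.7), in clonotype 6, in 56.7% of its cells against 4.99% of the other cells. Clonotype 6 was also high for Csf1, the macrophage growth factor, with 409 CPM against 115 CPM in the pooled others, 3.55-fold (3.19 to 3.95). Cd226, an activating receptor, was 110.3 CPM against 10.5 CPM in the pooled others, 10.5-fold (7.2 to 15), in clonotype 14, and Epcam, an adhesion molecule, was 47.7 CPM against 3.26 CPM in the pooled others, 14.6-fold (7.87 to 25.7) from 16 UMIs. Cd226 was also high in clonotype 16 at 58.4 CPM, 5.58-fold (3.88 to 7.86) above its pooled others, and in clonotype 3 at 58.1 CPM, 6.49-fold (4.86 to 8.61). In clonotype 16, Ikzf2, the transcription factor Helios, was 115 CPM (91.7 to 144), 4.88-fold (3.8 to 6.2) above its pooled others, and in clonotype 18 it was 125 CPM (101 to 153). Klrb1f, a lectin receptor, was 118 CPM against 17 CPM in the pooled others, 6.97-fold (5.15 to 9.29), in clonotype 19.

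**Figure D4:**
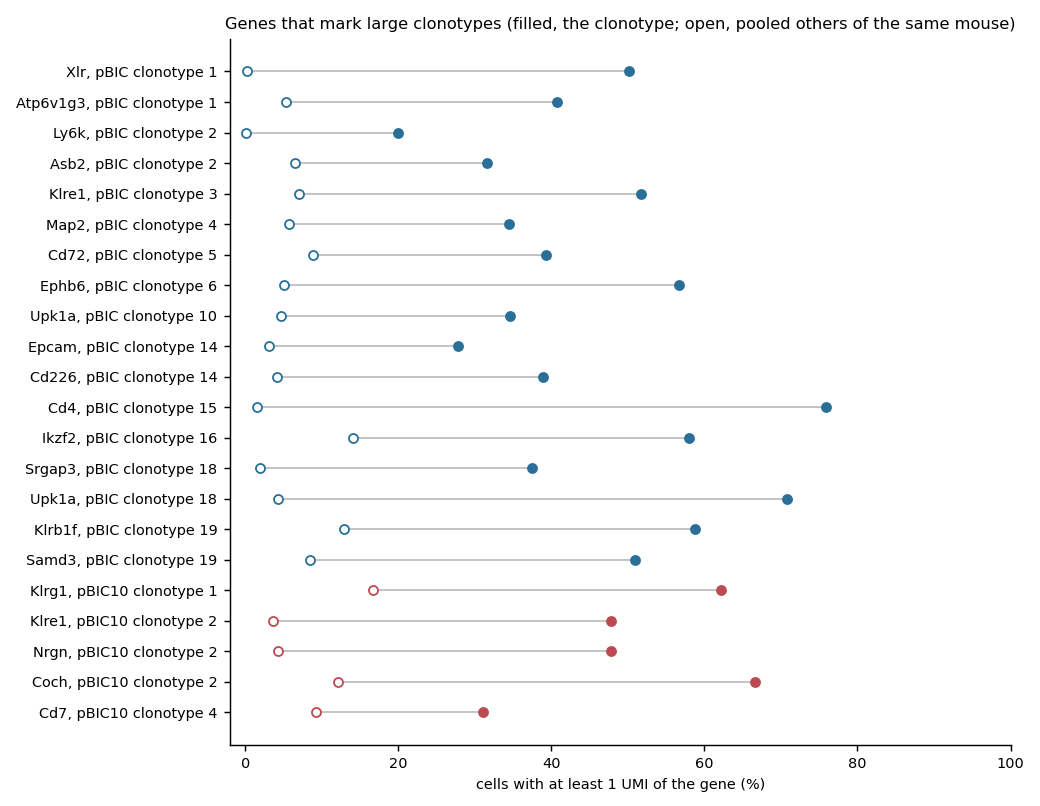
For each gene and clonotype named on the vertical axis, the filled point is the percentage of that clonotype's cells with a UMI and the open point the percentage in the pooled other large clonotypes of the same mouse. Xlr in clonotype 1 of pBIC is found in 50.2% of cells against 0.194%.

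The clonotypes with TRBV13-3 were compared after their values had been seen. Apobec2, of the cytidine deaminase family, was 175 CPM (150.0 to 202) in clonotype 6, 136 CPM (115 to 161) in clonotype 10 and 155 CPM (129 to 185) in clonotype 17, but 11.2 CPM (6.28 to 18.5) in clonotype 4. Ptpn5, a tyrosine phosphatase, was 96.2 CPM in clonotype 6, 102 CPM in clonotype 10 and 138 CPM in clonotype 17, against 27.6, 27.3 and 26.8 CPM in their pooled others. Clonotypes 6, 10 and 17 were also the lowest of the 19 in Cxcr3 at 8.84, 2.97 and 1.29 CPM, while clonotype 4 had 32.1 CPM. Apobec2 was not limited to this V gene, since clonotypes 3 (TRBV2) and 12 (TRBV2) had 147 and 119 CPM. Clonotypes 1 and 2, which share TRBV12-1, differed in the genes that follow, which were also chosen after their values were seen. Penk was 412 and 41 CPM, Klrg1 148 and 7 CPM, Bcl2 49.1 and 279 CPM, Ccr2 333 and 35.5 CPM, and Cxcr6 29.8 and 185 CPM. Their thinned shares of cells were closer for Tcf7 (3.74% and 4.46%), Il10 (2.04% and 3.57%) and Ifng (33.3% and 40.2%), but not for Pdcd1 (11.2% and 42.9%). Their median depths were close, at 7021 and 6575 UMIs.

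The Cd4 clonotype 15 had Gzmb and Gzmk at levels of the Cd8 clonotypes, but little Gzma. Its Gzmb was 2518 CPM (2369.8 to 2674), the median of the 19, and its Gzmk the highest of them. Its Gzma was 14.1 CPM (5.17 to 30.6), 0.0629 times (0.0231 to 0.137) the level of the pooled others, and its Prf1 the lowest of the 19. Cd247, the zeta chain of the TCR complex, was 936 CPM (847 to 1033), 3.99-fold (3.59 to 4.42) above the pooled others, and Cxcr3 was 3.27-fold (2.7 to 3.92) above them. Ccl3 and Ccl4 were low there but Ccl5 was not, with Ccl3 at 0.038 times (0.0232 to 0.0587) the level of the pooled others Ccl4 at 211 CPM and Ccl5 at 29428 CPM, rank 10 of 19.

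In pBIC10 the 5 clonotypes fell along the same genes. Clonotype 2 had the highest Ccl3, at 4076 CPM (3919 to 4238), 5.69-fold (5.36 to 6.03) above its pooled others, with 478, 383, 1698 and 975 CPM in clonotypes 1, 3, 4 and 5. Ifng in clonotypes 1 to 5 was 91.9, 493, 119, 323 and 270.0 CPM, so that clonotype 2 was again the highest and clonotype 1 the lowest. Pdcd1 was 81.5, 353, 206, 398 and 148 CPM and Tox 86.3, 369, 273, 367 and 174 CPM, with clonotypes 2 and 4 at the upper end of both and clonotype 1 at the lower end. Of the 12 tested genes of the inhibitory receptor list, 5 were past 2-fold higher and 1 lower in clonotype 2 (1.9% of its genes were higher) and 4 were higher and 0 lower in clonotype 4 (5.67%). Clonotype 4 had the highest sums of monocyte or macrophage markers, 3035 CPM, and of B-cell markers, 1375 CPM, and a UMI of Lyz2, a myeloid lysozyme, in 81% of its unthinned cells. Without 4 cells rich in markers of other cell types these sums were 492 and 941 CPM, and 5 of 12 were higher and 0 lower (5.17%). In clonotype 1, 0 were higher and 6 lower (2.68%), with a median log2 ratio of -1.03 against -0.02 over all its tested genes. Klrg1 was 166, 17.7, 79.2, 15.6 and 28.9 CPM, highest in clonotype 1, 4.58-fold (3.51 to 6.04) above its pooled others, and Ccr2 was 402, 85.1, 198, 49.8 and 251 CPM, also highest there. Clonotype 1 thus combined low Pdcd1 and Tox with high Ccr2 and Klrg1. Clonotypes 5, 1, 16, 15 and 19 of pBIC, also low in Pdcd1, had Klrg1 at 139, 148, 225, 82.1 and 67.6 CPM, the last 2 at or under the median, and Ccr2 at 553, 333, 316, 476 and 433 CPM.

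Clonotype 2 of pBIC10 held most of the transcripts of a further set of genes. Coch, which encodes the extracellular protein cochlin, was 257 CPM (219 to 299.8), 14.9-fold (10.7 to 21.1) above the pooled others, and Nrgn, a calmodulin-binding protein, was 164 CPM (133 to 199) in 47.8% of its cells. Gzmf, a granzyme of the Gzmc to Gzmg cluster, was 265 CPM (226 to 308), 144-fold (60.6 to 450.5) above the pooled others, but in 13% of its cells. S100a6, a calcium-binding protein, was 0.163 times (0.14 to 0.189) the level of the pooled others. Clonotype 4 had Cd7 6.36-fold (3.67 to 10.9) above its pooled others and Ccr2 at 0.184 times (0.105 to 0.301) their level. In clonotype 4, 0 of the 14 proliferation genes were higher and 9 lower (6.14% of its genes were lower), and its median depth of 3877.5 UMIs was the lowest of all 24. The span of that list over the 5 clonotypes went from 2.05-fold to 1.40-fold after thinning. Clonotype 3 had Ccl3 at 0.252 times (0.217 to 0.29) and Ccl4 at 0.178 times (0.16 to 0.198) the level of its pooled others. Clonotypes 1 and 3, which share TRBV31, were the lowest of the 5 in Ifng, Ccl3 and Ccl4. Clonotype 5 was the highest of its mouse in the proliferation and glycolysis lists, at 3036 and 7526 CPM.

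Some sums rested on a few cells, among them genes of other cell types. Camp, a granule protein of developing neutrophils, was 955 CPM (875 to 1039) in clonotype 9 of pBIC but found in 1.11% of its cells, and 664 CPM (601 to 731) in clonotype 5 of pBIC10, where 96.4% of the UMIs lay in 1 cell. H2-Ab1, an MHC class II gene, was 605 CPM in clonotype 14 with 92.6% of the UMIs in 1 cell. The 5 neutrophil markers summed to between 11.6 CPM in clonotype 17 and 9013 CPM in clonotype 9, and the 8 monocyte and macrophage markers to between 76.3 CPM in clonotype 12 and 2006 CPM in clonotype 14. In pBIC10 these sums lay between 889.9 and 4207 CPM and between 453 and 3035 CPM. Without the 30 and 15 cells in which such markers took over 1% of UMIs, 4.50% and 5.32% of the pairs of a clonotype and a gene were past 2-fold. Without them clonotypes 13 and 14 of pBIC had 11.9% and 14.3% of genes past 2-fold, in place of 12.4% and 14.7%, and clonotype 4 of pBIC10 had 12.2% in place of 11.8%. H2-Ab1 in clonotype 14 went from a log2 ratio of 3.09 to 0.09 without them.

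**Figure D5:**
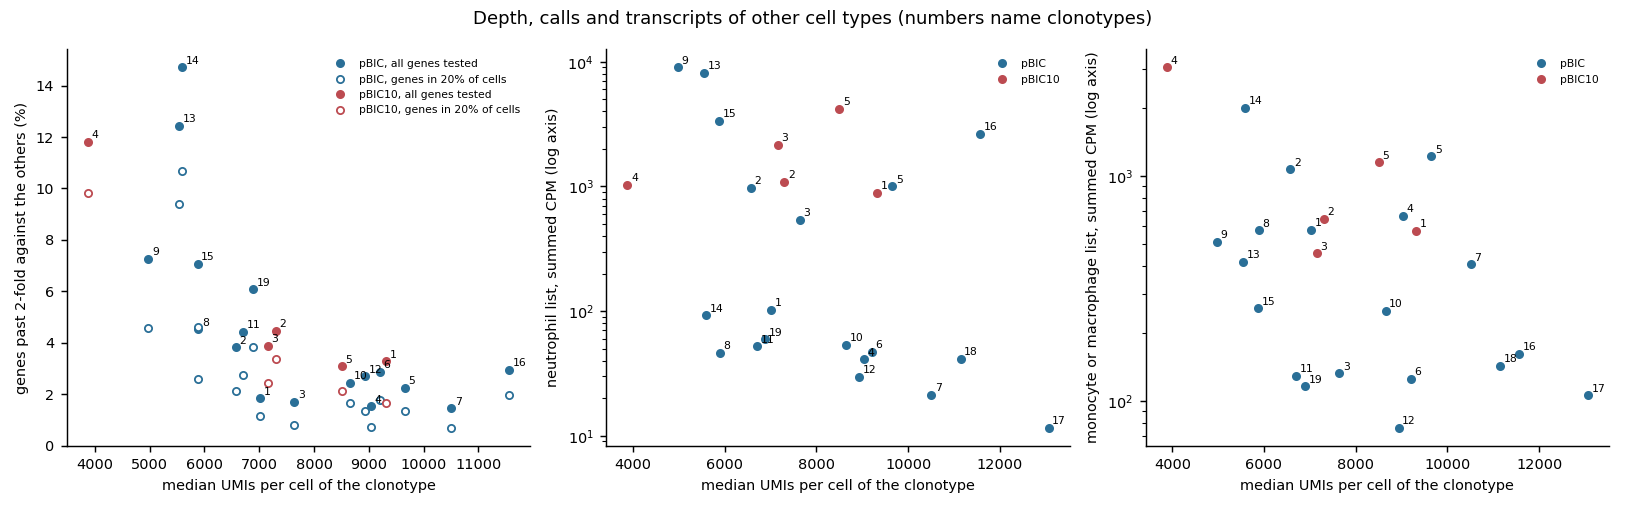
Each number is a large clonotype, placed by its median UMIs per cell on the horizontal axis, with the percentage of genes past 2-fold (filled for all genes, open for genes found in at least 20% of cells) and the summed CPM of neutrophil and of monocyte or macrophage markers (log axes) on the vertical axes. Clonotypes 13 and 14 of pBIC and 4 of pBIC10 combine low depth with the highest percentages.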

How the data were processed

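Gene expression and TCR libraries were used from 1 pBIC and 1 pBIC10 spleen. The deposited matrices hold UMI counts for 32285 genes per cell barcode, and the deposited TCR tables hold contigs, clonotype cell counts and, as a fraction, the share of each clonotype among cells with one. Per the submitters' processing notes the tool was Cell Ranger 3.0.1 with build GRCm39; the header of the deposited matrices instead gives cellranger 5.0.1, and which applies is not known. Only barcodes already called as cells were deposited, so free RNA was not modelled.

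For every clonotype the UMIs of its cells were added up and divided by their total to give CPM. Levels have Poisson, ratios conditional binomial and shares Clopper-Pearson intervals at 95% (Python 3.11.15, numpy 2.4.6, scipy 1.17.1, pandas 2.3.3, scanpy 1.11.5, matplotlib 3.10.9). The code was tested on simulated data with known fold changes. A clonotype was compared with the pooled others from 50 kept cells upwards, and TCR segment genes were left out, a choice made after the files were seen. Thinned shares, of 16 genes, were taken after drawing 2000 UMIs per cell, which left out 17 pBIC and 7 pBIC10 cells. Erythroid and B-lineage reference cells had no TCR contig and either at least 5 UMIs per cell of erythroid markers or at least 10 of Cd79. No doublets were removed from the main values. Scrublet, at a fixed score of 0.31 set because its automatic threshold called 0 pBIC cells, marked 440 (2.462%) and 367 (2.502%) barcodes for an alternative. CDR3 capitals begin and end where fewer than 20% of at least 5 other clonotypes with the same V or J gene share the sequence.

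Clonotypes, gene lists and comparisons were chosen with earlier results of these data known. Named genes were list members, the genes of the thinned shares, the markers and the 12 genes per mouse with the widest span. Added to these were up to 3 per direction in the 6 clonotypes with most kept cells, by the bound of the interval nearest to no difference. In pBIC clonotype 7, with 100 kept cells, was thus taken in place of clonotype 6, with 97. Genes named for clonotypes below these, Csf1, Ephb6, Ptpn5, Epcam, Cd226, Klrb1f and H2-Ab1, the comparison by V gene, the correlations and the ranking by share of cells were chosen after values were seen. Of the interferon list, Mx1 was not analysed here.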

Additional observations from a re-analysis of the deposited data

How the results depend on the processing

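The share of clonotype and gene pairs past 2-fold depended on the settings. In pBIC it was 4.77%, 12.2% with each cell thinned to 2000 UMIs, 2.48% for clonotypes of at least 100 cells, 2.91% without cells under 5000 UMIs, 14.6% at 1.5-fold, 1.67% at 3-fold, 39.8% with no minimum on UMIs or CPM and 2.96% for genes found in 20% of cells. In pBIC10 it was 5.32%, 18.1% at 1.5-fold, 1.72% at 3-fold, 2.58% with at least 200 UMIs and 34.9% with no minimum. The count of state lists spanning 2-fold in pBIC10 went from 7 to 4 without cells holding any Cd79 UMI and to 4 without cells under 5000 UMIs, while the pBIC count of 10 stayed between 8 and 10. The lineage counts of 18 and 5 did not change under the alternatives run. The causes were not tested. For 74 gene and clonotype pairs, 702 values were taken under alternative settings. Of these, 615 lay within the counting interval of the main ratio and 86 lay outside it, on either side. The 86 include differences that weakened, such as H2-Ab1 in pBIC clonotype 14 without cells rich in markers of other cell types. A change of sign was counted only where the main ratio was past 2-fold, and 1 value reversed. Camp in pBIC10 clonotype 5, with a log2 ratio of 4.67, was at -0.0043 without cells rich in markers of other cell types. Settings chosen after seeing the data were those without such cells, without cells under 5000 UMIs, without shared barcodes, without clonotype 15, without cells of 2 or more TRB chains, and with genes found in 20% of cells. No clonotype threshold of 100 cells or merging of shared TRB chains was run in pBIC10, where 1 clonotype would remain and none shared a chain. No paired analysis was possible because each genotype has 1 mouse. Depth limits the values of genes near 1 UMI per clonotype, and intervals do not cover differences between cells or animals.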
